A study of Penicillium oxalicum with 72 samples.

Results

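Transcript levels of *Penicillium oxalicum* after 12 h on 2-hydroxyethyl cellulose (HEC) were compared with those after 12 h without a carbon source (NC). The 6 libraries concerned, 3 on HEC and 3 on NC, were taken from a series of 72 by the short names in their labels. The series covers 6 media at 4, 12, 24 and 48 h, with 3 libraries per condition. Every library, NC included, comes from the same strain, Δ*PoxKu70*, in which the *PoxKu70* gene was deleted from the wild-type strain HP7-1. Hyphae were first grown on glucose (GLU), and about 1 gram of them was then moved to fresh basic medium, with 1% HEC in the HEC cultures and no carbon source in the NC cultures. The words of the HEC labels give methyl cellulose as the medium, while their short names say HEC, and the short names were followed. NC is therefore not the pre-culture itself but hyphae kept for the same 12 h without added carbon. The loss of *PoxKu70* was not checked, because the ID of that gene is not given in the sources used here.

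HEC is cellulose whose hydroxyl groups carry hydroxyethyl ethers, which make the polymer soluble in water. Fungi break down cellulose with secreted endoglucanases (EGs), which cut inside the chains, cellobiohydrolases (CBHs), which release cellobiose from chain ends, and β-glucosidases (BGLs), which split cellobiose into glucose. Cellobiose and longer cellodextrins can also be taken up by transporters and split inside the cell. In *P. oxalicum* and related fungi the cellulase genes are switched on by transcription factors such as ClrB and held back on glucose by CreA. AmyR switches on the amylase genes that degrade starch. XlnR raises xylanase production, and for *P. oxalicum* the paper cites earlier work in which it lowers cellulase production.

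At 12 h the response to HEC was small in number and wide in range. Of 8898 genes tested, 364 (4.09%) were differentially expressed genes (DEGs) on HEC, 225 (2.53%) higher and 139 (1.56%) lower than on NC. Levels are in FPKM, that is, mapped fragments relative to transcript length and library size, and were compared as log2(FPKM + 1) with limma. A gene counted as a DEG where log2 levels differed by 1 or more and *p*, before adjustment, did not exceed 0.05, and 336 of the 364 also had a Benjamini-Hochberg adjusted *p* of at most 0.05. Log2 fold changes of DEGs ran up to 6.10 and down to −3.20, and of the 58 DEGs with a change of at least 2 on this scale, 48 were higher on HEC. The 3 HEC and the 3 NC libraries did not overlap in 349 of the 364 DEGs. This is little in itself, because they did not overlap in 53.3% of all genes tested, 14.9% with HEC higher and 38.4% with HEC lower. Over all genes the log2 fold change had a median of −0.16, and of −0.00 once libraries were brought to a common scale with median-of-ratios size factors. Rescaling gave 393 DEGs (4.42%), 313 (3.52%) higher and 80 (0.899%) lower, so 79.6% of calls instead of 61.8% were higher. All 225 genes called higher and 80 of the 139 called lower were called on both scales, and where a lower call named below was lost on rescaling, this is said beside it.

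Of the 3 cellobiohydrolase genes, 2 rose on HEC. *POX05587/Cel7A-2*, a CBH of glycoside hydrolase family GH7, had 77.3, 73.2 and 34.1 FPKM on HEC, against 1.14, 0.75 and 0.78 FPKM on NC. *POX04786/Cel6A*, a CBH of family GH6, had 91.1, 77.0 and 35.4 FPKM on HEC, against 4.89, 2.89 and 4.69 FPKM on NC. In both genes replicate 3 on HEC was the lowest of its group and still far above NC. The log2 fold changes were 4.97 (SE 0.30, limma adjusted *p* = 0.000217) for *Cel7A-2* and 3.66 (SE 0.35, adjusted *p* = 0.00138) for *Cel6A*. The third gene annotated as a CBH, *POX02490/Cel7A-1*, stayed at 0.3–0.68 FPKM on HEC and 0.24–0.54 FPKM on NC (log2 fold change 0.14). The list of 3 CBH genes thus had 2 members called higher and a median log2 fold change of 3.66.

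Of 11 endoglucanase genes, 7 rose on HEC, none fell, and the median log2 fold change was 1.68. The largest rise of all genes tested was that of *POX05570/Cel45A*, an EG of family GH45 with a cellulose-binding module. *Cel45A* had 200, 163 and 122 FPKM on HEC, against 2.11, 0.77 and 1.28 FPKM on NC, a log2 fold change of 6.10 (SE 0.24, adjusted *p* = 4.20e-05) and 117 times the mean on NC. *POX01166/Cel5B*, a GH5 endoglucanase, had 332, 248 and 154 FPKM on HEC, against 4.97, 5.81 and 6.53 FPKM on NC (log2 fold change 5.12). The HEC and NC libraries of both genes lay far apart, with replicate 3 again lowest on HEC. *POX05571/Cel7B* (4.40) and *POX01896/Cel5C* (4.29) were next. Smaller rises were those of *POX06147/Cel5A* (1.74), the xyloglucan-specific *POX06983* (1.68) and *POX02740* (1.32). *POX06147/Cel5A* had 19.7, 15.2 and 7.25 FPKM on HEC, against 3.98, 2.95 and 2.76 FPKM on NC. The other 4 EG genes did not pass, among them *POX07535/Cel12A* with 7.99–8.56 FPKM on HEC and 8.83–13.4 FPKM on NC. Summed over the 11 genes, EG transcripts came to 1072, 856 and 665 FPKM on HEC, against 187, 202 and 208 FPKM on NC.

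Transcripts of some genes whose products open up cellulose for these enzymes rose as well. Lytic polysaccharide monooxygenases of family AA9 cut cellulose by oxidation, and swollenin loosens its fibres without cutting. Of these 5 genes, 3 were called higher (median log2 fold change 3.26). The swollenin gene *POX08485* had 133, 103 and 84.3 FPKM on HEC, against 6.08, 4.69 and 5.29 FPKM on NC (4.06, SE 0.17). The monooxygenase gene *POX02308*, annotated as Cel61A, had 383, 335 and 153 FPKM on HEC, against 26.01, 18.8 and 17.2 FPKM on NC (3.66, SE 0.34). *POX08897*, an AA9 gene with a cellulose-binding module, rose by 3.26, while the AA9 genes *POX05968* (0.16) and *POX09256* (−0.42) did not pass.

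The β-glucosidase genes did not move together. The clearest rise was that of *POX06079*, annotated as an intracellular BGL of family GH1, with 361, 304 and 321 FPKM on HEC, against 15.8, 15.0 and 13.9 FPKM on NC (log2 fold change 4.37, SE 0.09, adjusted *p* = 1.39e-06). *POX08491*, a putative BGL of family GH3, rose by 1.66. *POX06835/Bgl1*, known as the main extracellular BGL of the species, had 90.5, 85.6 and 101 FPKM on HEC, against 48.5, 54.9 and 55.1 FPKM on NC. All 3 HEC libraries of *Bgl1* were above NC, yet its log2 fold change of 0.79 (SE 0.09) stayed below the threshold of 1. *POX08882*, another putative GH1 BGL, was called lower (−1.02), but not after rescaling (−0.87) nor without replicate 2 (−0.95) or 3 (−0.99) on HEC or replicate 3 on NC (−0.97). In all, 2 of the 9 BGL genes were higher and 1 was lower.

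Uptake genes gave some of the most even changes among replicates. Of the 3 cellodextrin transporter genes, *POX06051/CdtC* had 3265, 2612 and 3295 FPKM on HEC, against 112, 115 and 107 FPKM on NC (4.76, SE 0.11, adjusted *p* = 1.67e-06). *POX05915/CdtD* had 602, 578 and 700 FPKM on HEC, against 261, 261 and 243 FPKM on NC (1.29, SE 0.10), and *POX01335/CdtG* did not pass (−0.30). A pair of further transporter genes rose about as much as *CdtC*. *POX08492*, annotated as a sugar transporter-like protein of the major facilitator superfamily, had 131, 110 and 135 FPKM on HEC, against 3.57, 3.21 and 3.23 FPKM on NC (4.86, SE 0.10). *POX01989*, a major facilitator with no substrate given, had 53.9, 49.8 and 77.0 FPKM on HEC, against 1.18, 1.11 and 1.40 FPKM on NC (4.76, SE 0.17). In these 4 genes every HEC library lay above every NC library. Of 68 sugar transporter genes tested, 7 were higher and 5 lower, beside 2.53% and 1.56% of all genes tested. *POX07415* (1.79) and *POX02624* (1.30) were also higher, *POX02624* not without replicate 1 on NC (0.96). The largest falls were those of *POX04369* (−1.97), *POX01317* (−1.30) and *POX03742* (−1.24), which stayed called after rescaling, whereas *POX05897* (−1.12) and *POX05076* (−1.03) did not. *POX04369* had 77.7, 54.8 and 87.7 FPKM on HEC, against 255, 350 and 259 FPKM on NC.

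**Figure D1:**
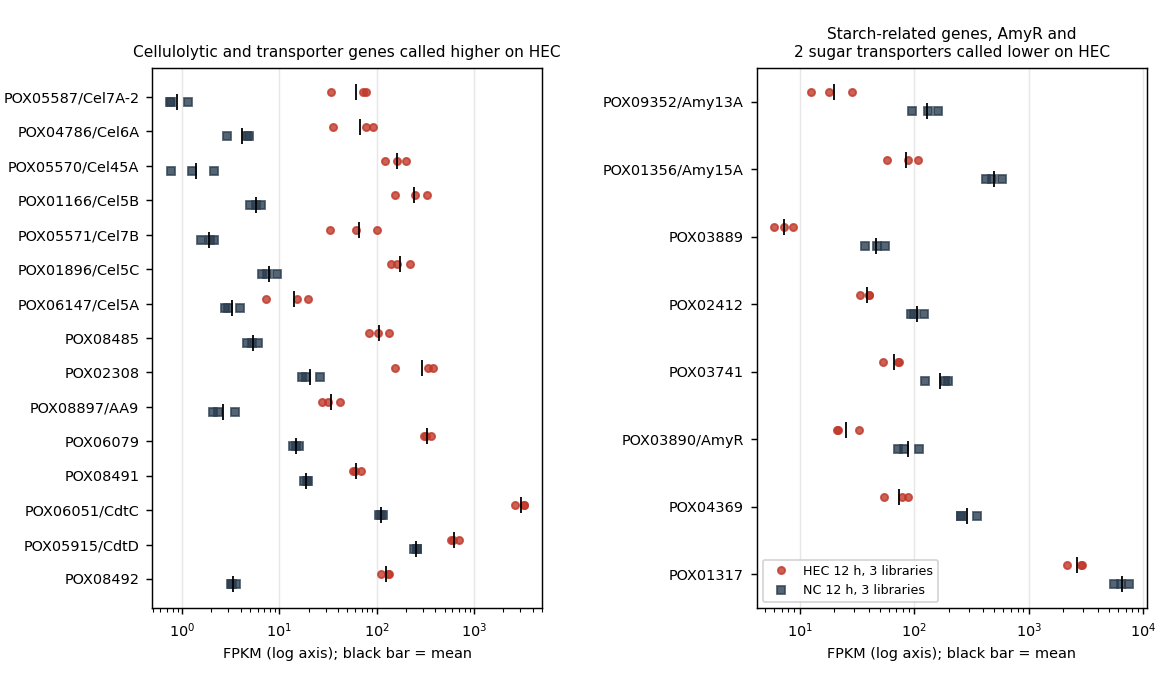
FPKM of each library at 12 h on a log axis for 15 cellulolytic and transporter genes called higher on HEC (left) and for starch enzyme genes, *AmyR* and 2 sugar transporter genes called lower (right), with HEC as circles above NC as squares and the mean as a black bar. No HEC library of a gene shown overlaps an NC library, and replicate 3 of HEC (34.1 FPKM for *Cel7A-2*) trails the others in most cellulase genes.

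Enzymes for other plant polysaccharides responded in part. Of 10 endo-xylanase genes, which encode enzymes that cut the xylan backbone, 3 were called higher. *POX00063/Xyn10A* had 17.8, 14.02 and 7.59 FPKM on HEC, against 1.24, 0.60 and 0.60 FPKM on NC (2.91, SE 0.29), and *POX06783/Xyn11A* rose by 1.45. The third, *POX01417*, was weakly expressed and close to the threshold (1.01), and lost its call without replicate 2 on HEC (0.78) and without replicate 2 (0.94) or 3 (0.94) on NC. Of 7 mannan and galactomannan genes, the endo-mannanase gene *POX01937* had 139, 119 and 92.5 FPKM on HEC, against 18.1, 17.0 and 13.2 FPKM on NC (2.78), and the β-mannosidase gene *POX01961* rose by 2.28. None of the 29 tested genes for xylan side chains and none of the 23 for pectin was called higher. Over all genes tested, 2.53% were called higher and 1.56% lower, so the lack of a call in lists this short is little in itself. A single pectin gene, *POX08875*, was called lower (−1.07), and this call was lost after rescaling (−0.95) and without replicate 3 on HEC (−0.74). Over all 8898 genes, 4359 had an unadjusted limma *p* of at most 0.05, of which 364 also passed the fold change threshold.

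Genes of starch degradation moved the other way. Of 12, 6 were called lower on HEC and none higher, with a median log2 fold change of −1.08, and the same 6 calls were made after rescaling. *POX09352/Amy13A*, an α-amylase with a starch-binding module, had 17.98, 12.5 and 28.9 FPKM on HEC, against 133, 163 and 96.0 FPKM on NC (−2.71, SE 0.30, adjusted *p* = 0.00245). *POX01356/Amy15A*, the glucoamylase that releases glucose from starch chain ends, had 88.9, 58.5 and 109 FPKM on HEC, against 424, 580 and 480 FPKM on NC (−2.55, SE 0.23). The α-glucosidase gene *POX03889* had 7.25, 6.02 and 8.68 FPKM on HEC, against 37.1, 55.1 and 47.7 FPKM on NC (−2.51, SE 0.17). *POX02412* (−1.43), *POX03741* (−1.33) and *POX06242* (−1.28) were the other 3. Their regulator was lower than on NC too, as *POX03890/AmyR* had 33.0, 21.8 and 21.1 FPKM on HEC, against 71.8, 110 and 81.6 FPKM on NC (−1.76, SE 0.21, limma adjusted *p* = 0.0029). At 4 h *AmyR* had 8.46, 16.1 and 8.74 FPKM on HEC and 13.3, 15.0 and 31.1 FPKM on NC. Its level was thus higher at 12 h than at 4 h in both media. Summed over the 12 genes, starch enzyme transcripts came to 480, 408 and 491 FPKM on HEC, against 1227, 1441 and 1187 FPKM on NC. At 4 h this sum was 282, 446 and 302.5 FPKM on HEC and 391, 427 and 577 FPKM on NC. Trehalose and glycogen genes, 12 in number, gave no call, and the GH65 trehalase gene *POX08768* had the largest value among them (0.94), and after rescaling the list had 1 call and a highest value of 1.11.

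Most known or candidate regulators of cellulase and xylanase genes changed little beside these enzymes. The list includes *POX04007* and *POX07871*, for which the paper leaves a role in this regulation to further study. Of 17, 1 was called higher and 3 lower. *POX03837/ClrA* had 32.8, 31.3 and 32.5 FPKM on HEC, against 12.3, 14.6 and 12.3 FPKM on NC (1.25, SE 0.10, adjusted *p* = 0.000596). The lower calls were those of *AmyR*, *POX01167/CxrA* (−1.10) and *POX02484* (−1.08). *AmyR* was called in each setting, while *CxrA* and *POX02484* were not called after rescaling (−0.93 and −0.92). Both also lost the call without replicate 3 on HEC (−0.90 and −0.80), *CxrA* without replicate 1 on NC (−0.99) and *POX02484* without replicate 2 on NC (−0.96). *POX01960/ClrB*, the activator of cellulase genes, had 60.9, 53.7 and 49.6 FPKM on HEC, against 51.0, 50.5 and 42.1 FPKM on NC (0.19, SE 0.11). *POX05324/XlnR* (−0.01) and *POX07254/CreA* (−0.14) did not pass, and *POX02071/ClrB-2* gave 0.63. For *ClrB*, *XlnR* and *CreA* the HEC and NC libraries overlapped. Among 274 transcription factor genes tested, 6 were called higher and 6 lower, beside 2.53% and 1.56% of all genes tested. The lower calls came to 2 after rescaling and 3 without replicate 3 on HEC. The largest rise was that of *POX09469*, annotated with a winged helix domain, which had 15.6, 14.6 and 6.82 FPKM on HEC, against 1.85, 1.05 and 0.28 FPKM on NC (2.69). None of 18 G protein-coupled receptor genes passed.

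**Figure D2:**
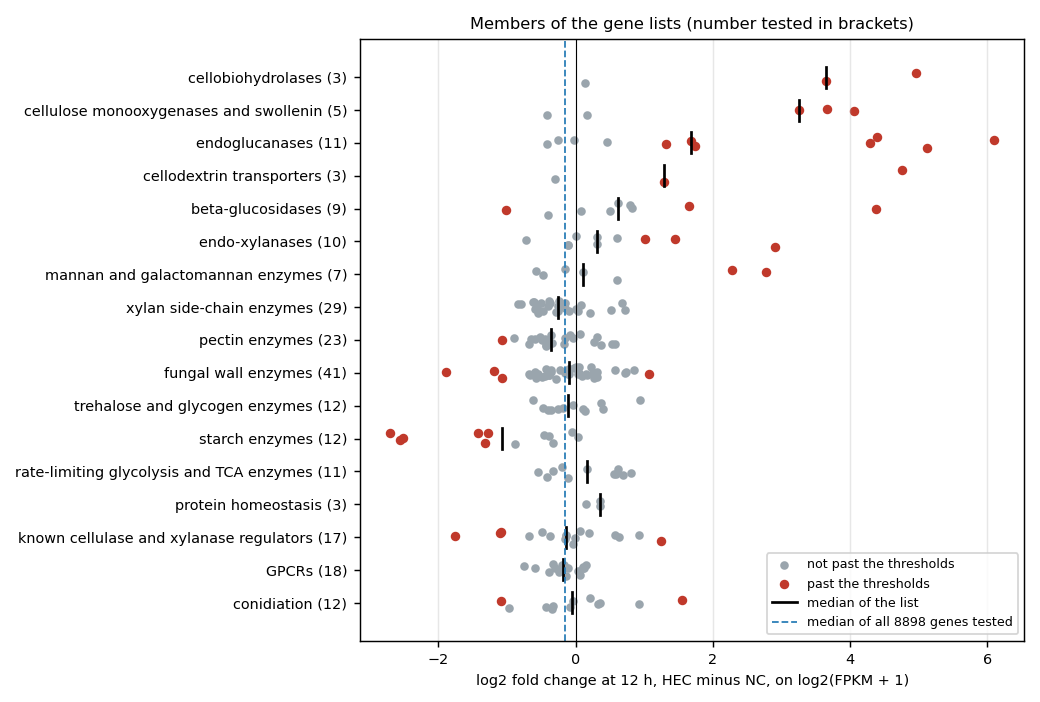
Log2 fold change (HEC minus NC, 12 h) of the tested members of 17 gene lists, with DEGs in red, the other members in grey, a black bar at the median of each list and a dashed line at the median of all genes (−0.16). Cellulolytic lists reach up to 6.10 and the starch list lies mostly below 0, while glycolysis, receptor and protein homeostasis genes lie inside the threshold of 1.

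The lists were taken from the tables and text of the study, which drew in part on these samples. Their counts therefore describe the response and are not independent evidence of it. They are to be read beside the shares of all genes tested, 2.53% higher and 1.56% lower. Of the 120 members of MEivory, the co-expression module of the study that holds major cellulase genes, 108 were tested, 27 were called higher and 1 was called lower, at a median of 0.21. Of 361 CAZyme genes tested, 26 were higher and 19 lower, and the lower calls came to 12 after rescaling and 12 without replicate 3 on HEC. Of 251 transporter genes of all kinds, 16 were higher and 14 lower, and 20 and 8 after rescaling. In central carbon metabolism, none of the 11 tested rate-limiting genes of glycolysis and the TCA cycle passed. The isocitrate dehydrogenase gene *POX06270* had 201, 193 and 237 FPKM on HEC, against 119, 123 and 117 FPKM on NC (0.80, SE 0.09), and the phosphofructokinase gene *POX08888* had 37.4, 39.4 and 31.4 FPKM on HEC, against 53.3, 53.1 and 52.0 FPKM on NC (−0.54, SE 0.10). The libraries of both genes did not overlap, as in 53.3% of all genes tested, and both differences were under the threshold. The twelfth gene of this list, the hexokinase gene *POX01079*, had 0.44–0.53 FPKM on HEC and 0.73–0.86 FPKM on NC and was below the filter of 1 FPKM. Of 97 DEGs found in any list, 53 were higher and 44 lower, and 267 DEGs were in none.

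Some of the largest changes were of genes with no annotation in the sources used here. *POX06266* rose by 4.23, with 71.3, 70.2 and 82.6 FPKM on HEC, against 2.61, 2.51 and 4.10 FPKM on NC. The largest falls were those of *POX07751*, with 6.27, 9.78 and 2.13 FPKM on HEC, against 91.3, 39.0 and 51.0 FPKM on NC (−3.20, SE 0.48), and *POX03935*, with 11.02, 9.42 and 9.59 FPKM on HEC, against 99.1, 71.4 and 80.6 FPKM on NC (−2.93, SE 0.13). The falls of both genes were called without any one library. Among enzymes of the fungal wall, the GH18 gene *POX07483* of the chitinase family fell by 1.89 on the log2 scale, with 11.9, 12.3 and 14.2 FPKM on HEC, against 46.7, 49.7 and 53.3 FPKM on NC. The list of 41 such genes had 1 member called higher, *POX02710* (1.08, limma adjusted *p* = 0.0723, lost without any of 4 of the 6 libraries, down to 0.80), and 3 called lower. Over all genes tested, 2.53% were higher and 1.56% lower. Of the 5 genes with the highest FPKM on HEC, 4 did not pass, led by *POX05554* with 47724, 50880 and 51154 FPKM on HEC, against 48181, 51659 and 54155 FPKM on NC. The exception was *POX09076*, with 7861, 8180 and 8987 FPKM on HEC, against 2296, 2765 and 3953 FPKM on NC (1.51).

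The libraries resembled each other most within conditions. Across genes, Pearson *r* of log2(FPKM + 1) was 0.988–0.994 among HEC libraries, 0.984–0.992 among NC libraries and 0.957–0.971 between them. The 6 libraries listed 9373–9420 genes each. Relative depth, estimated from the smallest steps of weakly expressed genes (52–81 of 345 per library), was 0.998–1.012. Only values close to a common step entered this estimate, so it could not have shown a large difference in depth. Replicate 3 on HEC stood somewhat apart. It was the lowest HEC library in 14 of the 17 genes called higher in the lists of CBH, EG, monooxygenase, xylanase and BGL genes. Among all DEGs it was the lowest in 120 of the 225 called higher and in 80 of the 139 called lower. It was the highest HEC library in 78 of the 225 and in 28 of the 139. Without it, 243 genes were called higher and 97 lower.

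The samples are labelled mycelium, and 12 genes of conidiophores, conidia and their pigment were read as a check for spore-forming structures. None of the 12 was at 0 in any library. Their summed level was 9468, 12735 and 3924 FPKM on HEC, against 20723, 13238 and 13358 FPKM on NC, so it was lower on HEC. Nearly all of it came from 2 genes of the pigment group, *POX01176/ArpA-like* with 5474, 7613 and 2285 FPKM on HEC, against 12174, 7673 and 7691 FPKM on NC, and *POX01179/ArpB-like*. *POX06534/BrlA*, the central regulator of conidiation, had 4.40, 4.03 and 2.66 FPKM on HEC, against 2.51, 1.14 and 0.93 FPKM on NC (0.93), and was called after rescaling (1.04). *POX01390/AygA* was called higher (1.55) and *POX01179/ArpB-like* lower (−1.09, adjusted *p* = 0.0958). The call of *ArpB-like* was lost after rescaling (−0.92) and without any one of 5 of the 6 libraries (−0.55 without replicate 3 on HEC). The remaining 9 markers besides *BrlA* did not pass. In 9 of the 12 the HEC and NC libraries did not overlap, 4 with HEC higher and 5 with HEC lower, beside 53.3% of all genes tested, 14.9% with HEC higher and 38.4% with HEC lower. The part of spore-forming structures in the other differences was not tested.

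The same stretch of gene IDs held the longest run of lower calls. From *POX01167/CxrA* to *POX01175*, 9 consecutive IDs were all called lower, and in all 9 replicate 3 was the lowest HEC library. The transporter gene *POX01168* had 329, 468 and 134 FPKM on HEC, against 1560, 1238 and 2094 FPKM on NC (−2.53, SE 0.44), and *POX01175* had 725, 1153 and 346 FPKM on HEC, against 3286, 2612 and 4396 FPKM on NC (−2.34, SE 0.42). From *POX01167* to *POX01187*, 16 of 21 genes were called lower, and 4 without replicate 3 on HEC. In the run of 9, the calls came to 3 without that library (*POX01168*, −2.02, *POX01170*, −1.07, and *POX01175*, −1.87), 8 were made after rescaling and 4 had an adjusted *p* of at most 0.05. This run was chosen after its values were seen, and whether consecutive IDs lie next to each other on a chromosome was not checked.

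**Figure D3:**
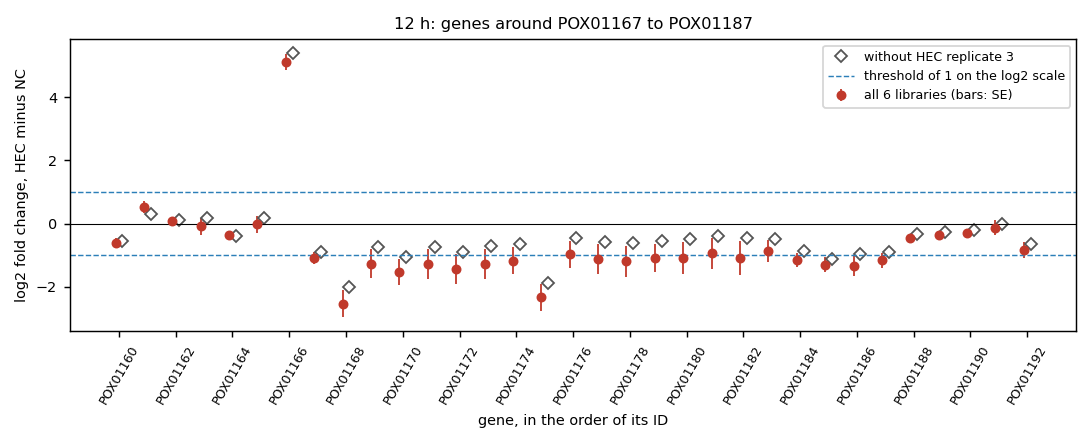
Log2 fold change at 12 h (HEC minus NC) of tested genes from *POX01160* to *POX01192* in ID order, from all 6 libraries (filled, bars show SE) and without replicate 3 on HEC (open diamonds), with dashed lines at the threshold of 1. From *POX01167* to *POX01187*, 16 genes were called lower with all libraries and 4 without replicate 3, while *POX01166/Cel5B* stands at 5.12. *POX01180* (−1.08) and *POX01182* (−1.09) also lie past the lower line but were not called.

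HEC was next set against methylcellulose (MC), a cellulose ether that carries methyl in place of hydroxyethyl groups, at the same 1% and 12 h. They are the single pair of related polymers compared here, and the HEC libraries are those set against NC above. Of 8898 genes, 399 (4.48%) differed, 249 (2.8%) higher and 150 (1.69%) lower on HEC than on MC, and 380 of them at an adjusted *p* of at most 0.05. After rescaling, 365 differed (4.1%), 155 (1.74%) higher and 210 (2.36%) lower, so 42.5% instead of 62.4% of calls were higher on HEC, and the median of all genes moved to −0.01 on the rescaled values, against 0.18 as deposited. The sign of small differences from MC therefore depends on the scale.

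The cellulase genes were far lower on HEC than on MC. *Cel7A-2* averaged 61.6 ± 23.8 FPKM on HEC, 7984 ± 1688 FPKM on MC and 0.89 ± 0.22 FPKM on NC (SD, n = 3 each), and HEC minus MC was −7.06 (SE 0.30, limma adjusted *p* = 2.65e-05). *Cel6A* had 91.1, 77.0 and 35.4 FPKM on HEC, 8859, 6114 and 7806 FPKM on MC and 4.89, 2.89 and 4.69 FPKM on NC (HEC minus MC −6.87, SE 0.32). The difference between the ethers in these 2 genes was thus larger than that between HEC and NC. Of the 11 EG genes, 7 were lower on HEC than on MC and none was higher, led by *Cel5A* (−5.58), *POX06983* (−5.12), *Cel5B* (−4.52) and *Cel7B* (−4.39). *Cel45A* differed by −3.13, with 1435, 1278 and 1482 FPKM on MC. The intracellular BGL gene *POX06079* (−4.20), *CdtC* (−2.33), *Xyn10A* (−4.66), *ClrA* (−1.84) and *ClrB-2* (−1.31) were lower on HEC too, as were 62 of 108 tested MEivory members. Over all genes tested, 1.69% were lower on HEC than on MC, and 2.36% after rescaling. For *ClrB* (−0.39, 95% interval −0.65 to −0.12), *CreA* (−0.38, −0.64 to −0.12) and *XlnR* (−0.30, −0.59 to −0.00) HEC minus MC was within the threshold.

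Other genes were higher on HEC than on MC. *POX08492* had 131, 110 and 135 FPKM on HEC, 1.65, 1.67 and 2.22 FPKM on MC and 3.57, 3.21 and 3.23 FPKM on NC, and HEC minus MC was 5.47 (SE 0.13, adjusted *p* = 1.19e-06). At 12 h it had 3.05, 2.0 and 0.99 FPKM on the microcrystalline cellulose Avicel (AV), 1.25, 0.81 and 0.87 FPKM on wheat bran (WB) and 3.46, 0.52 and 0.82 FPKM on GLU, all far below HEC. *POX01989* was higher on HEC by 3.24, with 5.39, 7.60 and 3.71 FPKM on MC, and *POX08491* by 1.47, with 22.7, 18.9 and 23.9 FPKM on MC. *Bgl1* was just past the threshold (1.01), which it missed without replicate 3 on HEC (0.95) or replicate 2 on MC (0.96) and after rescaling (0.81). Starch genes were also higher on HEC than on MC, 5 of 12, and 4 after rescaling. *Amy15A* had 88.9, 58.5 and 109 FPKM on HEC, 14.5, 13.6 and 16.6 FPKM on MC and 424, 580 and 480 FPKM on NC, so that HEC lay between the others (HEC minus MC 2.40, SE 0.21). The sugar transporter gene *POX04369* was ordered likewise, with 3.91, 7.35 and 3.53 FPKM on MC (3.68). *AmyR*, at 12.4, 8.21 and 16.4 FPKM on MC, missed the threshold by little (1.00, 95% interval 0.41 to 1.58) and passed it without any one of 4 of the 6 libraries (up to 1.21). Of 68 sugar transporter genes, 15 were higher and 6 lower on HEC than on MC. Over all genes tested, 2.8% were higher and 1.69% lower, and after rescaling 1.74% and 2.36%.

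For many genes the ethers could not be told apart by more than the threshold. In 7631 of 8898 genes (85.8%) the 95% interval of HEC minus MC lay within ±1, and the same held for 68 of the 138 named genes tested, while 57 were called. Examples with a clear change against NC were *POX09076* (−0.32, −0.63 to −0.01), *POX07483* (−0.13, −0.38 to 0.12) and *POX01812*, a major facilitator gene called higher against NC (−0.36, −0.77 to 0.05). For 13 named genes the interval crossed ±1 without a call, so that these data do not settle whether the ethers differ in them.

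**Figure D4:**
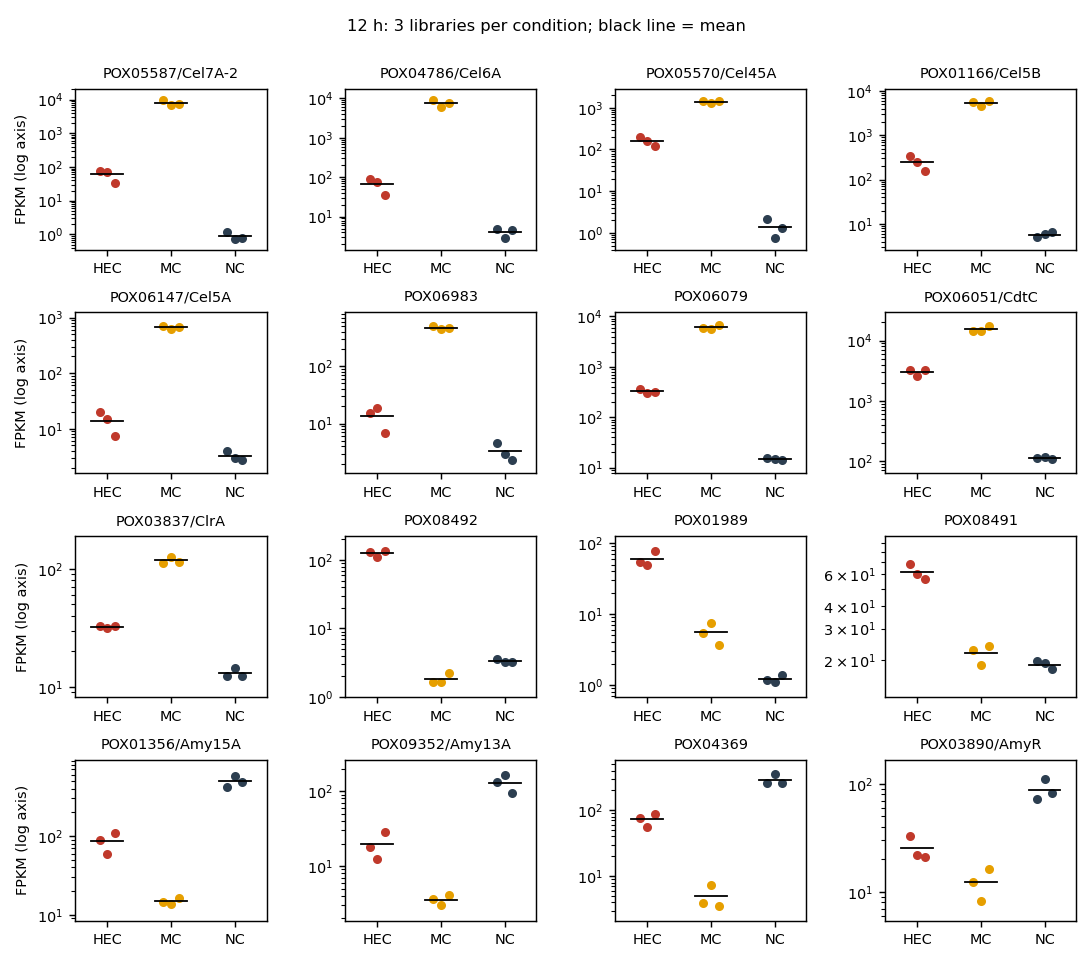
FPKM on log axes at 12 h of 16 genes on HEC, MC and NC, with 3 libraries per medium as points and the mean as a line. In the upper 9 panels, down to *ClrA*, HEC lies between MC and NC, *POX08492*, *POX01989* and *POX08491* are highest on HEC, and the starch-related genes *Amy15A*, *Amy13A* and *AmyR* and the sugar transporter gene *POX04369* are lowest on MC and highest on NC.

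The effect of HEC at 12 h was then compared with its effect at 4 and 24 h by the interaction of medium and time, each with 12 libraries. The 12 h libraries are shared by both tests. Against 4 h, 877 genes (9.86%) differed, 670 (7.53%) with a higher and 207 (2.33%) with a lower effect at 12 h. After rescaling these were 744 (8.36%), 441 (4.96%) higher and 303 (3.41%) lower, so 59.3% instead of 76.4% were higher. Against 24 h, 330 (3.71%) differed, 191 (2.15%) higher and 139 (1.56%) lower, and after rescaling 308 (3.46%), 128 (1.44%) higher and 180 (2.02%) lower, so 41.6% instead of 57.9% were higher. Each comparison of HEC with NC on its own gave 859 DEGs (9.65%) at 4 h, 364 at 12 h, 720 (8.09%) at 24 h and 751 (8.44%) at 48 h. The words of 1 NC label for 24 h, replicate 3, say 4 h, and its short name was followed.

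Cellulase and xylanase genes had a smaller response at 12 h than at 4 h. The CBH genes *Cel7A-2* and *Cel6A*, 5 of 11 EG genes, 6 of 10 endo-xylanase genes, 3 of 9 BGL genes and 2 of 3 cellodextrin transporter genes had a lower effect at 12 h. Over all genes tested, 2.33% had a lower effect, and 3.41% after rescaling. No member of these 5 lists had a higher one. The cellodextrin transporter genes were not lower on HEC itself at 12 h. Summed over the 3 genes, they came to 3888, 3209 and 4018 FPKM on HEC at 12 h, against 2397, 3014 and 2602 FPKM at 4 h. On NC these sums were 402, 402 and 373 FPKM at 12 h, against 92.0, 101 and 169 FPKM at 4 h. The list of monooxygenase and swollenin genes did not follow these 5 lists. Its member *POX08897* had a higher effect at 12 h (1.69, SE 0.28, limma adjusted *p* = 0.00411), with 18.2, 21.3 and 16.6 FPKM on HEC and 4.38, 6.29 and 6.31 FPKM on NC at 4 h, and none had a lower one on the deposited scale, while 1 did after rescaling. *Cel6A* had 225, 518 and 380 FPKM on HEC and 1.57, 1.88 and 2.12 FPKM on NC at 4 h, and its effect was lower at 12 h by −3.30 (SE 0.50, limma adjusted *p* = 0.00311). *Xyn10A* had 265, 566 and 322 FPKM on HEC and 3.67, 5.95 and 3.92 FPKM on NC at 4 h, a difference of −3.17 (SE 0.46). The call of *Cel7A-2* (−1.11, adjusted *p* = 0.0743) was lost without replicate 3 on HEC at 12 h (−0.74) or replicate 2 on HEC at 4 h (−0.95), and with a pseudocount of 0.1 (−0.53). The log2 fold changes of *Cel6A* against NC were 6.96, 3.66, 2.97 and 6.78 at 4, 12, 24 and 48 h, and those of *Cel45A* 6.89, 6.10, 5.37 and 4.68. Against 24 h, 1 EG gene, *POX02740* (−1.03, not called without replicate 1 or 2 on HEC at 24 h or replicate 3 on NC at 12 h, down to −0.89), and none of the CBH and BGL genes passed. The monooxygenase gene *POX02308* had a lower effect at 12 h than at 24 h (−1.58, adjusted *p* = 0.0614). The xylanase genes *Xyn10A* (1.03, adjusted *p* = 0.105) and *POX01417* (1.06, adjusted *p* = 0.105) had a higher one, and these 2 calls were lost on leaving out any one of 6 and 5 of the 12 libraries, down to 0.78 and 0.83.

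Transporter gene *POX08492* followed another course. It had 0.85, 2.86 and 1.34 FPKM on HEC at 4 h, against 0.83, 1.26 and 1.57 FPKM on NC, and 768, 864 and 1342 FPKM on HEC at 24 h, against 4.73, 6.93 and 5.44 FPKM on NC. Its effect at 12 h was higher than at 4 h by 4.64 (SE 0.32, adjusted *p* = 0.000128) and lower than at 24 h by −2.32 (SE 0.26, adjusted *p* = 0.00101). At 48 h it had 261, 352 and 166 FPKM on HEC, against 4.60, 4.83 and 3.84 FPKM on NC. Levels on NC stayed between 0.83 and 6.93 FPKM at all times, so the course lay in the HEC libraries.

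In other genes the NC libraries differed most between times. *Amy15A* had 55.7, 136 and 87.5 FPKM on HEC at 4 h, against 42.8, 54.0 and 98.7 FPKM on NC, and its effect was lower at 12 h by −3.06 (SE 0.51), as NC stood at 424–580 FPKM at 12 h. *POX05654*, with no annotation here, had 120, 134 and 149 FPKM on HEC at 4 h, against 31.6, 20.1 and 6.84 FPKM on NC, and 317, 285 and 183 FPKM on HEC at 24 h, against 50.8, 40.3 and 55.4 FPKM on NC. At 12 h NC rather than HEC was higher, at 290–356 FPKM, against 125–194 FPKM on HEC. The interaction was −3.96 (SE 0.56) against 4 h and −3.40 (SE 0.30) against 24 h, although the fall at 12 h itself (−1.02) was not called after rescaling (−0.85) nor without replicate 3 on HEC (−0.87) or replicate 1 on NC (−0.93). *POX09076* and *POX06446*, also without annotation, were called higher on HEC at each of 4, 12, 24 and 48 h. Their effect was smallest at 12 h, where NC stood at 2296–3953 FPKM for *POX09076*, against 133–289 FPKM at 4 h, 41.7–389 FPKM at 24 h and 23.5–43.2 FPKM at 48 h.

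**Figure D5:**
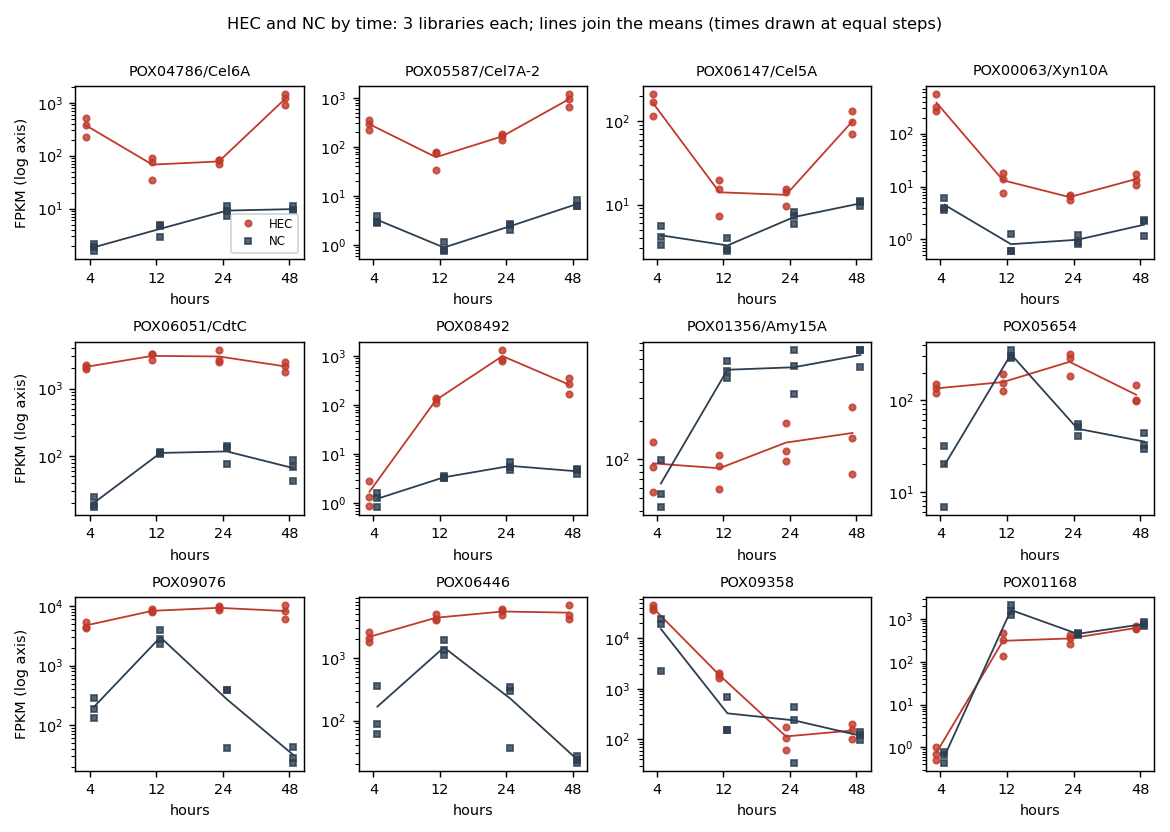
FPKM on log axes of 12 genes on HEC (circles) and NC (squares) at 4, 12, 24 and 48 h, 3 libraries each, with lines joining the means and times drawn at equal steps. *Cel6A* and *Xyn10A* are lower on HEC at 12 h than at 4 h, *POX08492* reaches 768–1342 FPKM on HEC at 24 h, and *POX09076* and *POX05654* are highest on NC at 12 h.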

How the data were processed

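RNA of *P. oxalicum* hyphae was sequenced from poly(A)-selected mRNA on a BGISEQ-500. The deposited values are FPKM per gene. Per the methods of the authors, reads were cleaned with SOAPnuke, aligned to the HP7-1 genome with HISAT and to its genes with Bowtie2, and FPKM was estimated with RSEM 1.2.12. The submitters' processing notes instead name BWA 0.7.10-r789 and Bowtie2 2.1.0. A gene left out of a library was set to 0. No counts were used, so the depth of the libraries was not measured directly.

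The 8898 genes whose mean over all 72 libraries reached 1 FPKM were fitted as log2(FPKM + 1) with limma 3.58.1 (moderated test with a trend, two-sided, R 4.3.3), which understates changes of weakly expressed genes. Each fit held only the groups compared, with no covariate, and *p* was adjusted by Benjamini-Hochberg over all genes tested. The authors describe the 3 libraries per condition as biological replicates. The sources do not say whether each came from its own culture, and if not, *p*-values measure only the spread between these libraries, which may be technical. Intervals are 95% intervals of that fit. The scripts were tested on simulated data. Alternatives were the scale, the pseudocount, the filter, the samples in the fit, a replicate block, the adjusted *p* and leaving out each library.

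Named genes are all members of the CBH, EG, BGL, monooxygenase, xylanase, cellodextrin transporter, regulator, protein homeostasis, glycolysis and TCA, and conidiation lists. To these were added the 10 largest rises and falls with no overlap between groups, up to 5 DEGs per direction in each other list and with the largest difference from MC, 4 h and 24 h, and the 5 genes highest on HEC. *POX06242*, *POX08768*, *POX01170* and the run of IDs were chosen after their values were seen. The members and lists were chosen with earlier results of these data known. Plots were drawn with matplotlib 3.10.9.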

Additional observations from a re-analysis of the deposited data

Results flagged for a closer look

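The effect of HEC against NC at 12 h differed from that at 4 h in 877 genes and from that at 24 h in 330 genes, by limma's test of the interaction of medium and time. The named genes with the largest differences follow, as the effect at 12 h minus that at the other time.

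Against 4 h, the effect was higher at 12 h for the sugar transporter gene *POX08492* (4.64). It was lower for the CBH gene *POX04786/Cel6A* (−3.30), the EG gene *POX06147/Cel5A* (−3.21), the xylanase gene *POX00063/Xyn10A* (−3.17) and the glucoamylase gene *POX01356/Amy15A* (−3.06). It was also lower for *POX05654* (−3.96), *POX09076* (−3.10), the transporter gene *POX01168* (−2.64), *POX07573* (−2.25) and *POX01175* (−2.22). At 4 h *POX01168* (0.44–1.05 FPKM) and *POX01175* (0.34–1.52 FPKM) were weakly expressed on both HEC and NC, so their differences largely restate their falls at 12 h.

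Against 24 h, the effect was higher at 12 h for *POX09358* (3.46). It was lower for *POX09076* (−4.14), *POX06446* (−3.55), *POX05654* (−3.40), *POX06033* (−2.80), *POX00805* (−2.67), *POX01168* (−2.15), *POX01929* (−1.83), *POX03761* (−1.59) and *POX07751* (−1.51). Of these, *POX09358* (limma adjusted *p* = 0.0978), *POX00805* (0.171), *POX01929* (0.0703) and *POX07751* (0.185) had an adjusted *p* above 0.05, and so did 14 of the 26 named genes called against 24 h. The calls of *POX00805* (−3.44 to −1.44) and *POX07751* (−1.90 to −1.01) were each lost on leaving out any one of 6 of the 12 libraries.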

How the results depend on the processing

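No called value turned its direction under the alternatives run. The count of genes whose HEC effect differed between 12 h and 24 h came to 206 with an adjusted *p*, against 330 without adjustment, a stricter limit on the same values. Leaving out each library in turn gave 340–405 DEGs on HEC against NC, 384–425 on HEC against MC, 778–1080 for 12 h against 4 h and 312–378 for 12 h against 24 h. With a pseudocount of 0.1 these counts were 472, 509, 1019 and 413, in the same order.

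Whether the replicate numbers pair the libraries could not be decided from so few libraries. Same-numbered HEC and NC libraries deviated from their means with correlations of 0.106, −0.116 and 0.205 across genes. For libraries of different number these ran from −0.282 to 0.272. With a replicate block, 365 DEGs were found on HEC against NC, 400 on HEC against MC, 864 for 12 h against 4 h and 337 for 12 h against 24 h.

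Rescaling changed 11 calls of named genes on HEC against NC to not called, and gave 1 new call, *BrlA*. On HEC against MC, 8 calls of named genes were lost with it. The sign of 14 of the 61 named genes that were not called turned with it. FPKM carries no counts, so counting error of weak genes such as *Cel7A-1* was not measured.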
